A study of Homo sapiens with 16 samples.

Results

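MeRIP-seq, in which fragments carrying N6-methyladenosine (m6A) are pulled down with an antibody and sequenced beside unenriched input RNA, was examined at 10 genes of insulin and insulin-like growth factor (IGF) signalling: IGF1R, INSR, IGF2R, IRS1, IRS2, GRB2, GRB10, IGFBP2, IGFBP3 and IGFBP5. A member region was any interval of the authors' merged list that overlapped the GENCODE span of a gene by at least 1 bp. These were 33 of the 36970 merged regions, and they held 192 of the 191974 peaks in the 8 lists. IGF1R was chosen by its peak calls, because one of its regions was called in C4-2B lists alone, so its differences between the lines are described and not tested. C4-2B is an enzalutamide-sensitive human prostate cancer line, and MDV-R is a resistant line derived from it by serial exposure to enzalutamide, a drug used against prostate cancer. Both were wild type per the labels and were harvested at day 3, with 4 replicates per line, each with an immunoprecipitated (IP) and an input library. The study's methods keep MDV-R in medium with enzalutamide and name no drug for C4-2B, while the labels give 1 medium for both lines, so resistance and drug exposure cannot be told apart. MDV-R is a single derived line, and nothing in the labels says whether replicates came from separate cultures, so p-values measure the spread between these samples alone.

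MDV-R titles name T24R2 as well, and the cell line field was followed. Among prostate luminal genes, regions lay in KLK2, KLK3, TMPRSS2, HOXB13, FOLH1 and STEAP2, and among 8 urothelial genes in 2, UPK2 and UPK3A; no merged region lay in UPK1A, UPK1B, UPK3B, KRT5, GATA3 or PPARG. KLK2, HOXB13, FOLH1 and STEAP2 each held a region called in 4 of 4 lists of both lines, and so did UPK2. The C4-2B lists held 13191 to 24746 peaks, with replicate 1 the shortest, and the MDV-R lists 23880 to 30645. Relative depth was recovered from the peak statistics and set to 1 for the mean IP library. For IP libraries it ran from 0.892 to 1.16 (C4-2B) and from 0.906 to 1.16 (MDV-R), and for inputs from 0.865 to 1.21 (C4-2B) and from 1.81 to 2.86 (MDV-R), so input depth and line cannot be told apart.

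IGF1R and INSR are paired receptor tyrosine kinases on the cell surface. Bound by IGF or insulin, they phosphorylate the docking proteins IRS1 and IRS2, which recruit PI3-kinase, while the adaptor GRB2 links them to RAS and GRB10 binds the active receptors and dampens their signal. IGF2R removes IGF2 from the surface, and the IGF binding proteins hold IGF outside the cell. m6A is laid down on nascent transcripts, mostly near stop codons, in 3′UTRs and in long exons, often at GGAC, and it bears on the splicing, stability and translation of the RNA.

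The sequences around the main summits show where each site lay. Exon 2 of IGF1R and exon 2 of INSR encode matching parts of the extracellular, ligand-binding portion of these receptors, and each carried a summit, at position 280 of 546 nt and position 295 of 552 nt. In the best ungapped alignment of the sequences around these summits, 68 of 89 nt were identical (76.4%), and the summits lay 12 nt apart. Both stretches are shown 5′ to 3′ on the strand of the gene (hg38) with the identical bases in capitals, from chr15:98707803-98707891 (plus strand) and chr19:7267564-7267652 (minus strand). The INSR region was picked for display after its values were seen.
IGF1R exon 2: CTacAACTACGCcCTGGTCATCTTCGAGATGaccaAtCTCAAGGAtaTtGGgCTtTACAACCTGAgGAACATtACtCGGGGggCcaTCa
INSR exon 2: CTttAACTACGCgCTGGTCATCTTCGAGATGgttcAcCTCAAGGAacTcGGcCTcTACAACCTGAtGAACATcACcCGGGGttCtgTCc

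Neither stretch held GGAC, and the nearest GGAC had its A at 93 nt (downstream) from the summit in IGF1R and at -93 nt (upstream) in INSR. Of the 10 member regions called in all 8 lists, 4 had a GGAC on the transcribed strand no more than 50 nt from their summit, and 9 no more than 100 nt. The summit taken was that of the peak with the highest −log10 p in any library. For INSR it came from MDV-R replicate 2, at a 3′UTR site called in 3 lists of each line. Over all 7442 exonic regions called in all 8 lists, 50.4% held GGAC within 50 nt of the summit, against 25.4% on the opposite strand and 29.2% and 29.4% in windows shifted by 300 nt to either side. The 4 matches are shown as 30-nt stretches with GGAC in capitals, from chr7:50592836-50592865 for GRB10, chr6:160104936-160104965 for IGF2R, chr19:7116129-7116158 for INSR and chr13:109785216-109785245 for IRS2. The coding sequence around the strongest IGF1R and IRS1 summits follows, from chr15:98957294-98957424 and chr2:226795895-226796017, drawn out to the nearest GGAC, whose A lay at -55 nt and 51 nt from the summit.
GRB10 3′UTR: attctgcacctggGGACccagagcgagatg
IGF2R exon 48: ttcaggagcgtgaGGACgatagggtggggc
INSR 3′UTR: ccaaaccaagctaGGACattaaaaaaaaaa
IRS2 exon 1: tgtggatgcaggcGGACgactcggtggtgg
IGF1R exon 21: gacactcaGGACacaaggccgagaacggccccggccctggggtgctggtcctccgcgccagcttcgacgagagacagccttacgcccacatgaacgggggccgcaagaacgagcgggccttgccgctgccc
IRS1 exon 1: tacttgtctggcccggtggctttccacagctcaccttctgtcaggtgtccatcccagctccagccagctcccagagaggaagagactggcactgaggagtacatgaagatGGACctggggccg

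The first comparison asked which sites on these transcripts were called in each line. Peaks were called in 31 of the 33 regions: the strongest summit lay in CDS in 10, in a 3′UTR in 9, in an intron in 7, in a non-coding exon in 2, in a 5′UTR in 2, and outside the gene span in 1, at the edge of GRB10. In all, 10 regions were called in all 8 lists, 2 in IGF1R, 3 in IRS2 and 1 each in INSR, IGF2R, IRS1, GRB10 and IGFBP3, against 25.9% of all 36076 called regions. All 10 had their strongest summit in CDS (5) or a 3′UTR (5) and in an exon of 1590 nt or more. The INSR region counts as 3′UTR here by its strongest summit. Its site called in all 8 lists lay in CDS, at a median of -228 nt from the last coding base. IGFBP2, an IGF binding protein, held no region and no peak, and the 2 regions without a peak lay in GRB2 and IGFBP3. The region called in 4 of 4 lists of C4-2B and 0 of 4 of MDV-R was exon 2 of IGF1R, on whose calls the gene was chosen, and 1.22% of all called regions had that pattern. The member closest to it was an intronic region of IRS1, at 4 of 4 and 2 of 4 lists. The reverse, 0 of 4 and 4 of 4, held for 2 regions, both intronic, in IGF2R and GRB10, and for 3.68% of all called regions. For those 2 the two-sided Fisher's exact p was 0.0286, the smallest that 4 lists against 4 allow, and 0.584 after adjustment over all called regions.

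**Figure D1:**
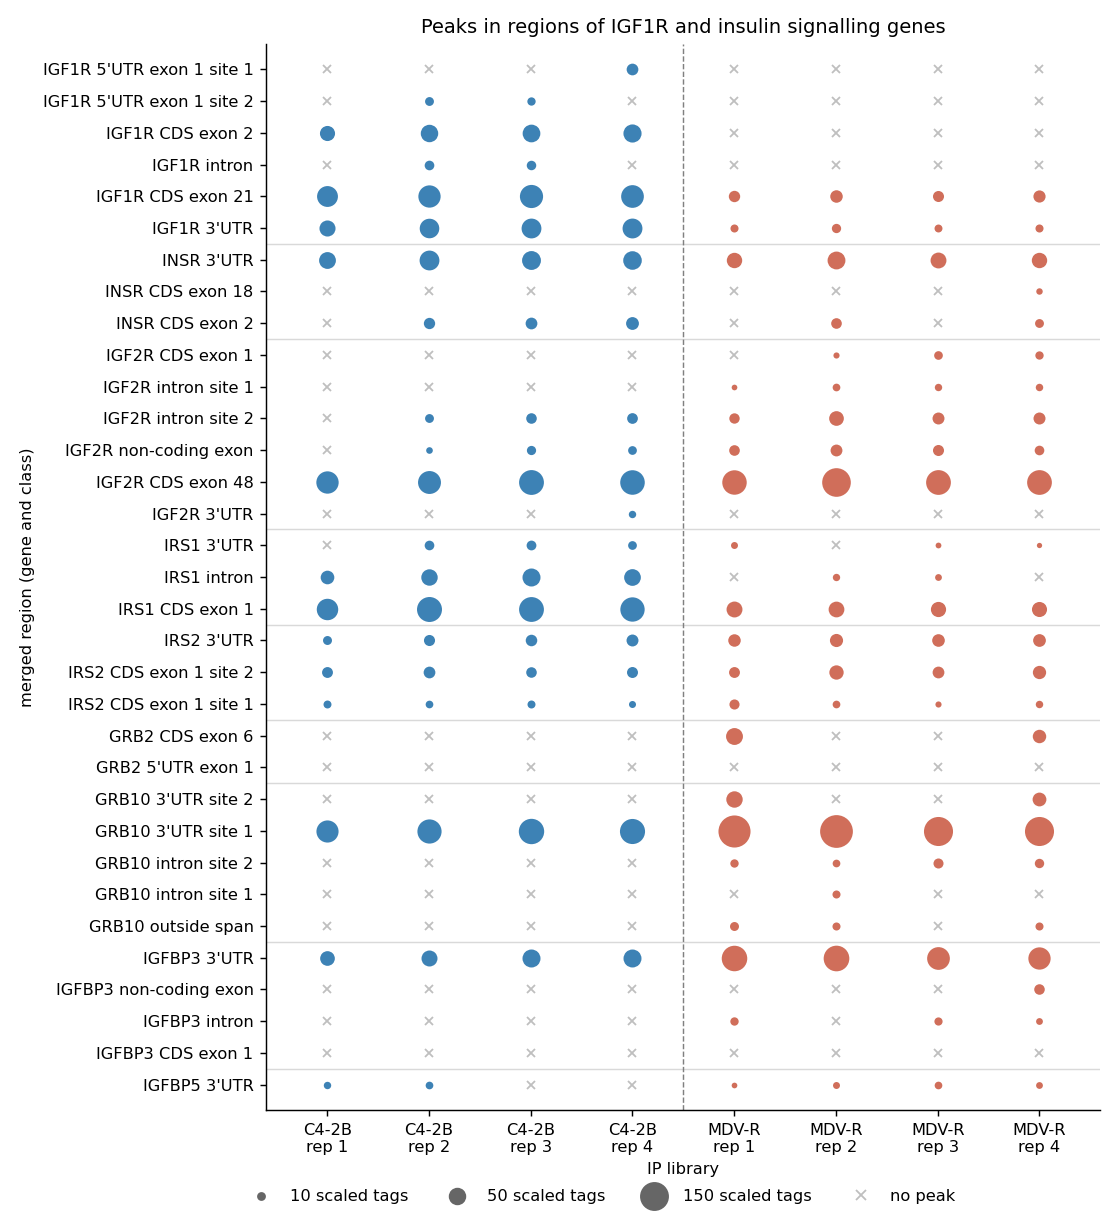
Peaks in the 33 merged regions (rows, by gene) over the 8 IP libraries (columns). Circle area is the number of IP tags at the summit of the strongest peak, scaled to the mean IP depth, and a cross marks no peak; exon 2 of IGF1R was called in the 4 C4-2B lists alone, while the exon 21 and 3′UTR regions were called in all 8 with smaller circles in MDV-R.

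IGF1R, the receptor for IGF1 and IGF2, lies on chromosome 15 (98648539 to 98964530, plus strand) and held 22 peaks in C4-2B lists and 13 in MDV-R lists. Its exon 2 region (98707494 to 98708090) was called on 54, 62, 59 and 60 tags in C4-2B replicates 1 to 4, or 46.6, 62.3, 64.1 and 67.2 tags after scaling to the mean IP depth. All 4 summits fell within 35 nt. The fold enrichment over local background there was 6.89, 16.5, 9.77 and 19.96, and the peaks ranked between the 59.5th and the 89.3rd percentile of their lists by −log10 p, so replicate 1 was the weakest of the 4. No MDV-R list held a peak in the region. MDV-R lists held peaks called on as few as 4 tags elsewhere, and signal under the caller's threshold has no value in the lists.

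At the 2 IGF1R regions shared by both lines, MDV-R had fewer IP tags in every library. The exon 21 region (98956844 to 98958532) had its strongest summit in the last coding exon, at -80 nt from the last coding base. Scaled tags there were 89.0, 101.4, 109.7 and 105.3 in C4-2B and 26.4, 32.0, 24.9 and 30.3 in MDV-R. The lowest C4-2B library stood far above the highest MDV-R library, and the means were 101.4 ± 8.93 and 28.4 ± 3.30 (SD, n = 4). After each library was centred on its median over all fitted regions, tags were 3.52-fold lower in MDV-R, a log2 difference of -1.82 ± 0.10 (SE). The local background, which the peak caller took from input and which is given here in multiples of the library-wide background, averaged 27.0 ± 2.18 (SD, n = 4) in C4-2B and 3.85 ± 1.63 in MDV-R, without overlap. Its centred log2 difference was -2.40 ± 0.41 (SE). The background is known at called peaks alone, and the abundance of the transcript was not tested. In bulk RNA, fewer cells with a transcript and less transcript per cell could not be told apart either.

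Fold enrichment at exon 21 did not follow the tags. The 4 values were 7.79, 10.2, 11.7 and 11.1 in C4-2B and 14.5, 14.2, 14.2 and 11.6 in MDV-R, so the groups overlapped, and the centred log2 difference was 0.03 ± 0.26 (SE). Over the 9324 regions fitted, the median log2 fold enrichment was 0.40 higher in MDV-R and the median log2 background 0.49 lower, while that of tags differed by -0.02. Centred differences are relative to these shifts. Input depth was also higher in MDV-R, and its part in the shifts was not tested. Without centring the exon 21 difference in fold enrichment was 0.43. Because fold enrichment adds 1 to tags and to background, it is lowered most where the background is low. In MDV-R the exon 21 background was 2.42 to 6.19 multiples of a library-wide value of 0.30 to 0.34 tags. The effect of the added 1 on the exon 21 difference was not tested.

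The 3′UTR region of IGF1R (98961467 to 98962929) lay 5006 nt past the last coding base. It had 52.7, 78.3, 80.4 and 80.7 scaled tags in C4-2B and 13.2, 17.7, 12.9 and 13.3 in MDV-R. The groups did not overlap, and the centred difference was 5.01-fold. Background was 15.9 ± 0.765 (SD, n = 4) in C4-2B and 1.92 ± 0.832 in MDV-R, a centred log2 difference of -2.67 ± 0.38 (SE). Fold enrichment averaged 11.6 ± 2.62 and 9.67 ± 1.86 (SD, n = 4), and its centred log2 difference was -0.65 ± 0.24 (SE). The MDV-R background was 1.21 to 2.79 library-wide units, near its floor of 1, where the 1 added to tags and background weighs most. The part of the added 1 in this difference was not tested. Among the 9324 fitted regions the log2 difference in tags was the 23rd lowest at the 3′UTR region and the 68th lowest at exon 21. Both regions also lie on SYNM-AS1, an annotated antisense gene, and the peak lists carry no strand.

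Along the spliced IGF1R transcript of 12235 nt, C4-2B summits formed 7 sites and MDV-R summits 4. The 4 sites of both lines were all in the last exon, at medians of -84, 772, 4300 and 5032 nt from the last coding base. At each of the 4 the lowest C4-2B value was above the highest MDV-R value, for example 48.4 to 64.3 scaled tags in 3 C4-2B lists and 9.48 to 11.2 in 2 MDV-R lists at the third. Exon 2 reached 52.4% to 63.8% of the tags of exon 21 in the same C4-2B library. The 3′UTR region reached 59.2% to 77.2% of exon 21 in C4-2B and 43.8% to 55.2% in MDV-R. The remaining IGF1R regions, 2 in the first exon and 1 in an intron, were called in 1 or 2 C4-2B lists and in no MDV-R list.

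**Figure D2:**
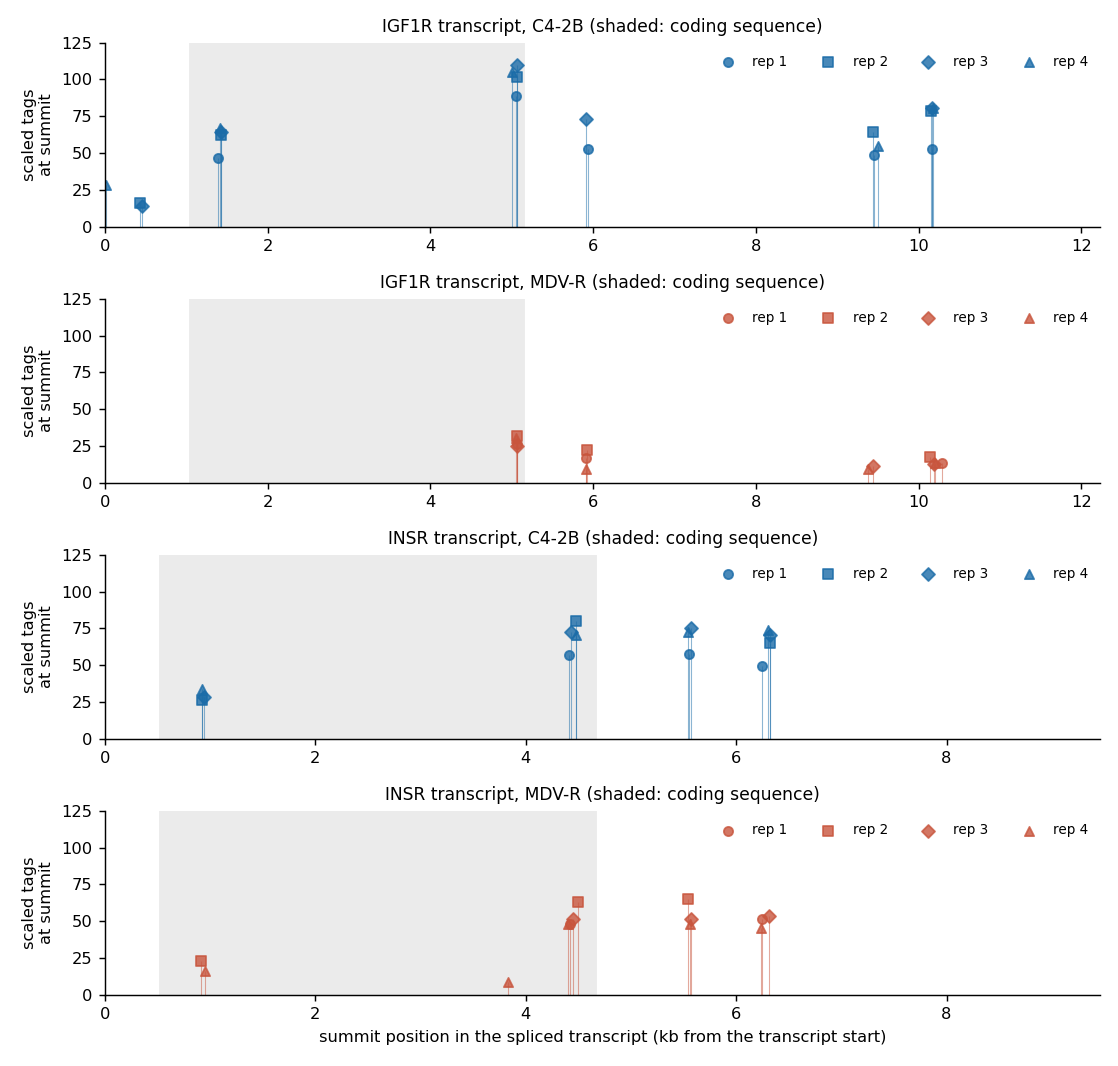
Summits on the spliced transcripts of IGF1R and INSR, by line. The x axis is the position in kb from the transcript start, the y axis the scaled tags at the summit, each symbol 1 replicate, and shading the coding sequence; intronic summits are not drawn. IGF1R summits in MDV-R reached at most 32.0 tags. The last-exon sites of IGF1R and the last 3 sites of INSR had summits in both lines, though not all of them in every list.

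INSR, the insulin receptor (chromosome 19, 7112255 to 7294414, minus strand), showed a smaller difference. Its region at the end of the transcript (7115089 to 7117565) held 3 sites, at medians of -228, 888 and 1634 nt from the last coding base, and the first was called in all 8 lists. The strongest peak had 57.9, 80.3, 72.8 and 70.6 scaled tags in C4-2B and 48.4, 65.1, 51.5 and 48.4 in MDV-R. The groups overlapped, with C4-2B replicate 1 below MDV-R replicate 2, and which of the sites held the strongest peak varied between libraries of both lines. Tags fell by 0.38 on the log2 scale in MDV-R (SE 0.09, limma adjusted p = 0.000826). Over all fitted regions tags were lower in MDV-R in 29.2% and higher in 24.9%. Background was 15.04 ± 5.85 and 6.43 ± 4.50 (SD, n = 4; limma adjusted p = 0.162), with MDV-R replicate 3, at 13.1, far above the other MDV-R libraries, at 3.71 to 4.83. Fold enrichment was 13.1 ± 6.35 and 20.1 ± 6.95 (SD, n = 4), a centred log2 difference of 0.26 ± 0.27 (SE; limma adjusted p = 0.667).

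The exon 2 region of INSR (7267457 to 7268021), the counterpart of the IGF1R exon 2 region, was called in 3 of 4 C4-2B lists, on 26, 26 and 30 tags, and in 2 of 4 MDV-R lists, on 21 and 17 tags. C4-2B replicate 1 and MDV-R replicates 1 and 3 held no peak there. Its 5 summits fell within 37 nt. Fold enrichment was low in both lines, at 3.10 to 5.29 in C4-2B and 4.55 and 5.71 in MDV-R. A further region in exon 18 was called in 1 MDV-R list on 9 tags.

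IGF2R, which carries IGF2 and mannose 6-phosphate-tagged enzymes to lysosomes (chromosome 6, 159969082 to 160113507, plus strand), had its strongest site in exon 48, its last, at -174 nt from the last coding base (160104398 to 160105467). Scaled tags there were 102, 107, 126 and 123 in C4-2B and 122, 168, 125.4 and 125.2 in MDV-R. The groups overlapped, and MDV-R replicate 2 stood above the others. Tags rose by 0.25 on the log2 scale in MDV-R (SE 0.07, limma adjusted p = 0.00427), a call that was lost without centring (adjusted p = 0.221). Background was 51.2 ± 17.6 and 54.2 ± 23.3 (SD, n = 4; limma adjusted p = 0.0787), and fold enrichment 6.89 ± 2.36 and 8.67 ± 3.93 (SD, n = 4; limma adjusted p = 0.859). The gene also held the intronic region called in MDV-R alone (160017909 to 160018509), on 6, 11, 13 and 12 tags. A region over exon 1 was called in 3 of 4 MDV-R lists, on 7, 18 and 15 tags, and in no C4-2B list (Fisher's exact p = 0.143, adjusted 0.997). The summits of MDV-R replicates 3 and 4 lay in exon 1. That of MDV-R replicate 2, on 7 tags, lay outside the exons of the spliced transcript used here. Another intronic region, and one over a non-coding exon that overlaps the pseudogene CHP1P2, were called in 3 of 4 lists of C4-2B and 4 of 4 of MDV-R. A 3′UTR region was called in C4-2B replicate 4 alone, on 10 tags.

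IRS1, the docking protein that links the receptors to PI3-kinase (chromosome 2, 226731312 to 226799820, minus strand), had fewer IP tags in MDV-R. Its region over exon 1, a 4832-nt exon that holds the coding sequence (226794817 to 226799955), had 94.1, 128, 126 and 121 scaled tags in C4-2B and 51.8, 50.7, 47.2 and 46.5 in MDV-R. Every C4-2B library was above every MDV-R library, and tags fell by 1.23 on the log2 scale (2.34-fold; SE 0.08, limma adjusted p = 4.98e-14). The strongest peak of MDV-R replicate 4 lay at another site of the exon, at 4298 nt of the transcript. In the other libraries it lay at 3712 to 3867 nt. The call in tags was kept without MDV-R replicate 4. Background was 11.5 ± 3.78 (SD, n = 4) in C4-2B and 2.68 ± 1.67 in MDV-R and fell by 1.73 (SE 0.34, limma adjusted p = 0.00374), where 9.74% of all fitted regions had a lower and 6.62% a higher background in MDV-R. Fold enrichment was 25.7 ± 8.75 and 28.3 ± 5.99 (SD, n = 4), a centred log2 difference of -0.21 ± 0.23 (SE; limma adjusted p = 0.681). By −log10 p the region ranked in the 97.0th to 99.4th percentile of the C4-2B lists and in the 87.0th to 91.3rd of the MDV-R lists.

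The intron of IRS1 held a region (226785914 to 226786500) that was called in 4 of 4 C4-2B lists, on 44, 55, 61 and 51 tags, and in 2 of 4 MDV-R lists, on 10 and 11 tags (Fisher's exact p = 0.429). Every MDV-R value was under every C4-2B value, and MDV-R replicates 1 and 4 held no peak. In the 3′UTR, 48 nt past the last coding base, a region was called in 3 of 4 lists of each line, on 14 to 19 tags in C4-2B and 6 to 9 in MDV-R.

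IRS2, the second docking protein (chromosome 13, 109752695 to 109786583, minus strand), was called at all of its 3 regions in all 8 lists. In the 3′UTR, 558 nt past the last coding base (109755540 to 109756589), scaled tags were 16.4, 25.1, 27.2 and 29.1 in C4-2B and 31.9, 35.3, 32.6 and 33.2 in MDV-R. The groups did not overlap, and tags rose by 0.50 on the log2 scale (SE 0.15, limma adjusted p = 0.00571). The 16.4 of C4-2B replicate 1 came from a peak elsewhere in the region (109756318). Its peak at the site of the other libraries had 21.6 tags. The call was kept with the peak nearest to the common summit. Fold enrichment was 10.3 ± 2.57 and 17.9 ± 3.91 (SD, n = 4; limma adjusted p = 0.397). Toward the end of exon 1 (109782038 to 109784846), tags were 22.8 to 28.1 in C4-2B and 24.2 to 41.9 in MDV-R and missed the threshold (log2 difference 0.38 ± 0.17 SE, limma adjusted p = 0.0541). That p was 0.0315 without C4-2B replicate 1 and 0.0116 without MDV-R replicate 1, whose strongest peak lay at another site of the region. Near the start of the coding sequence (109785055 to 109786657), tags were 10.1 to 13.04 and 7.73 to 20.9 (limma adjusted p = 0.878). In MDV-R replicates 3 and 4 the strongest peak there lay at 600 and 751 nt of the transcript. In the other libraries it lay at 1134 to 1323 nt, so the values come from different sites. This region also overlaps another annotated gene, and the peak lists carry no strand. Local background was 1.00 to 6.57 over the 3 regions and 8 libraries, and its adjusted p was 0.279 to 0.999.

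GRB10, the adaptor that dampens receptor signalling (chromosome 7, 50590063 to 50793462, minus strand), had more IP tags in MDV-R at its 3′UTR region (50592239 to 50593348), whose summit lay 78 nt past the last coding base. Scaled tags were 100.2, 119, 131 and 129 in C4-2B and 210.3, 220, 173 and 173 in MDV-R, with no overlap. Tags rose by 0.71 on the log2 scale (1.64-fold; SE 0.06, limma adjusted p = 1.19e-10). Background was 49.4 ± 11.1 (SD, n = 4) in C4-2B and 77.1 ± 30.9 in MDV-R and rose by 1.07 relative to the median (SE 0.16, limma adjusted p = 0.000508), but by 0.58 with an adjusted p of 0.255 without centring. Fold enrichment was 7.02 ± 1.45 and 8.58 ± 3.02 (SD, n = 4; limma adjusted p = 0.773). All other GRB10 regions were called in MDV-R lists alone: the intronic region called in 4 of 4 (50661924 to 50662720), on 13, 11, 24 and 19 tags with summits up to 545 nt apart, a region at the gene's edge in 3 of 4, a second 3′UTR region in 2, and a second intronic region in 1. MDV-R lists also held more peaks on average (26877, against 21116.5 in C4-2B). The share of all called regions with 1 to 3 MDV-R lists and no C4-2B list was not counted. For 4 of 4 MDV-R lists and 0 of 4 C4-2B lists that share was 3.68%. GRB2, the adaptor to RAS, was called in 2 MDV-R lists at its last exon, on 53 and 39 tags at a fold enrichment of 3.05 and 2.87.

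IGFBP3, a secreted IGF binding protein (chromosome 7, 45912245 to 45921874, minus strand), had the highest rise in tags among the members. Its 3′UTR region (45913088 to 45914083), with the summit 250 nt past the last coding base, had 44.1, 52.2, 66.3 and 66.1 scaled tags in C4-2B and 133, 135, 106 and 101.5 in MDV-R. Every MDV-R library was above every C4-2B library, and tags rose by 1.09 on the log2 scale (2.12-fold; SE 0.08, limma adjusted p = 3.95e-12). Background was 15.3 ± 5.44 and 23.2 ± 6.51 (SD, n = 4) and rose by 1.12 relative to the median (SE 0.27, limma adjusted p = 0.0125), but by 0.63 with an adjusted p of 0.277 without centring. Fold enrichment was 10.5 ± 5.18 and 15.04 ± 3.35 (SD, n = 4; limma adjusted p = 0.721). An intronic region was called in 3 of 4 MDV-R lists and in no C4-2B list, on 10 to 16 tags, and a non-coding exon in MDV-R replicate 4 alone, on 24 tags. IGFBP5, another binding protein, was called in its 3′UTR in 2 of 4 C4-2B lists, on 13 and 12 tags, and in 4 of 4 MDV-R lists, on 6 to 14 tags.

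**Figure D3:**
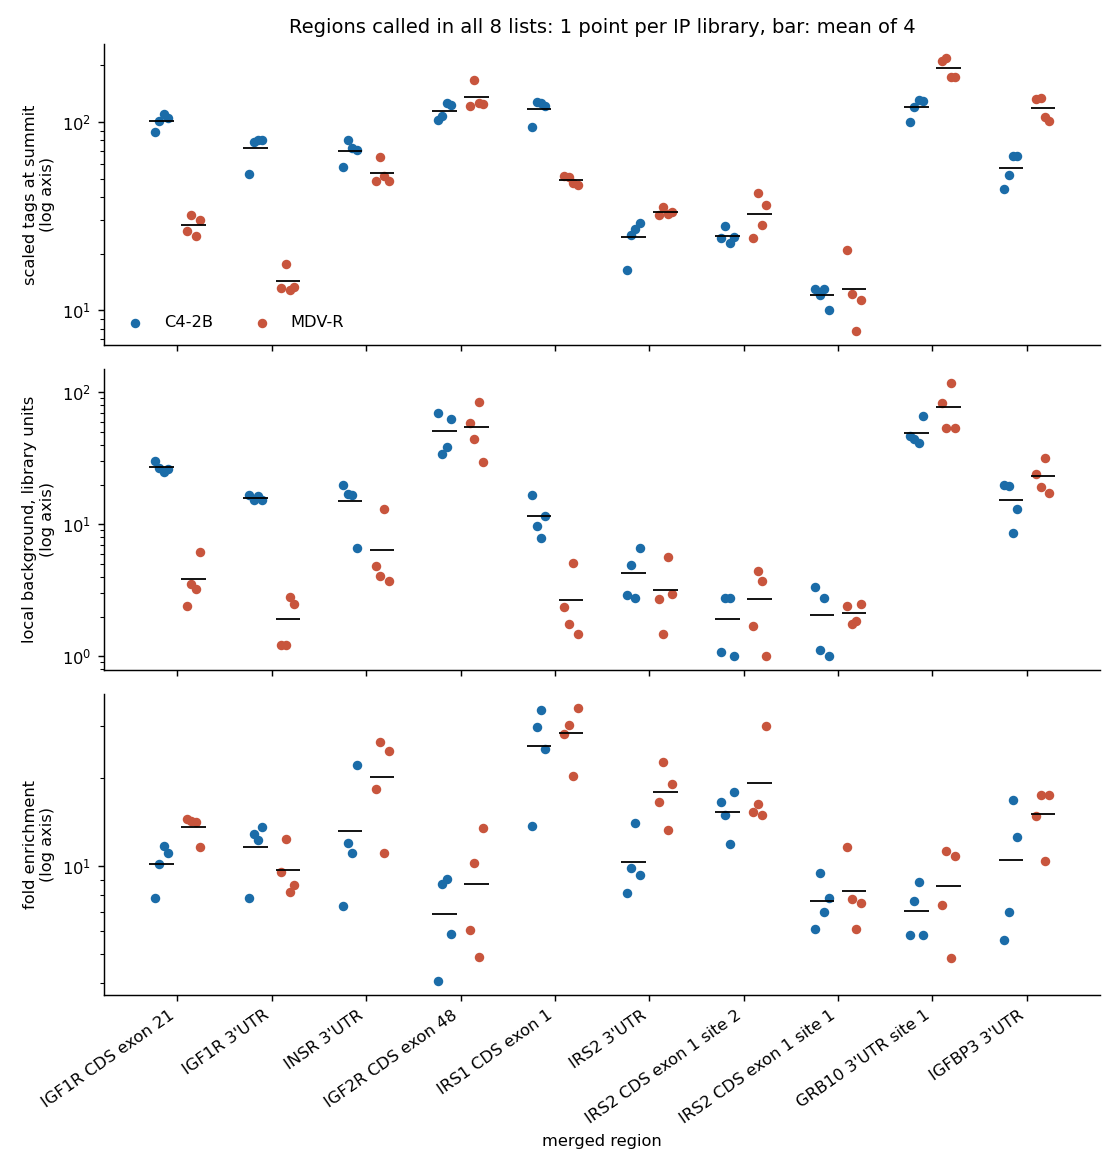
The 10 regions called in all 8 lists, with scaled tags, local background and fold enrichment on log axes; each point is 1 IP library and each bar the mean of 4. Tags and background were lower in MDV-R at IGF1R and IRS1 without overlap, tags were higher at GRB10 and IGFBP3 without overlap, and fold enrichment overlapped between the lines at all 10.

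Set side by side, the 8 shared regions outside IGF1R had tags that passed the test in 6, 4 higher and 2 lower in MDV-R, background that passed in 3, 2 higher and 1 lower, and fold enrichment that passed in none. Over all fitted regions tags passed as higher in 24.9% and as lower in 29.2%, so 2 lower of 8 was near that share, and background passed as higher in 6.62% and as lower in 9.74%. In fold enrichment, limma found no region with an unadjusted p under 0.05 either, and the exact permutation test called none after adjustment. Over all fitted regions fold enrichment was higher in MDV-R in 0.901% and lower in 1.77%. The median log2 difference over the 8 regions was 0.32 in tags, 0.63 in background and -0.12 in fold enrichment, beside -0.02, 0.01 and 0.03 over all fitted regions. At each of the 4 regions with the greatest difference in tags (IGF1R exon 21 and 3′UTR, IRS1 and IGFBP3), the background differed in the same direction. The exact two-sided permutation test, which cannot go below 0.0286 per region, called none of the 9324 regions for any measure after adjustment.

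**Figure D4:**
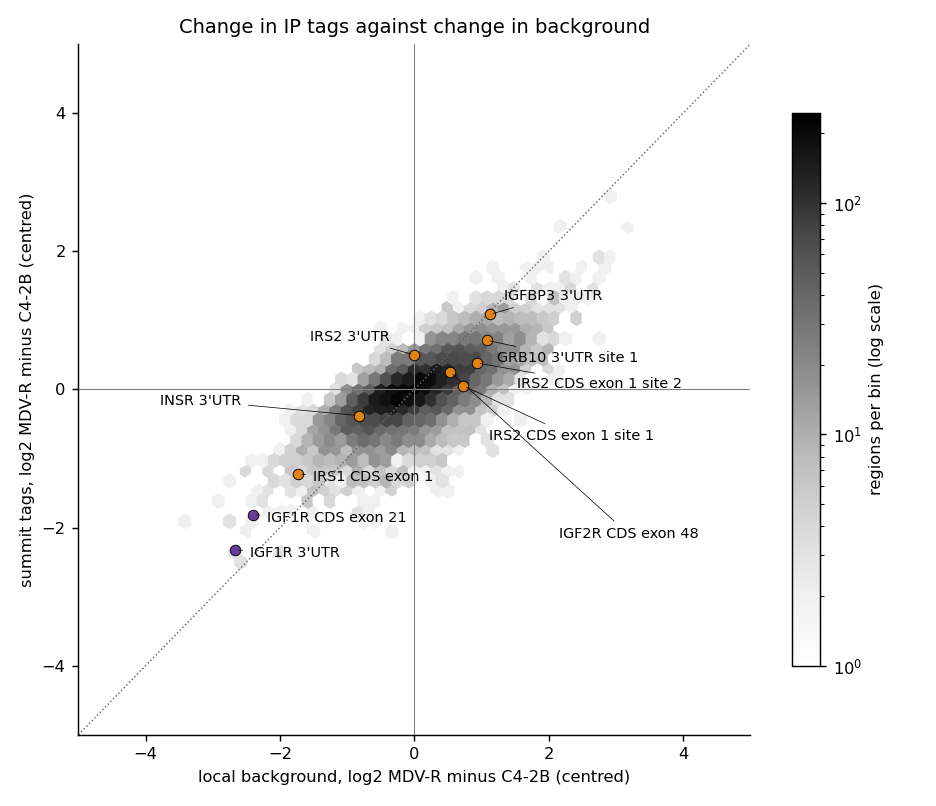
Centred log2 difference (MDV-R minus C4-2B) in summit tags against that in local background, over the 9324 regions called in all 8 lists (grey bins) and the 10 member regions (points, IGF1R in purple); the dotted line marks equal differences. IGF1R lay at -2.40 and -2.67 in background and -1.82 and -2.33 in tags, IRS1 at -1.73 and -1.23, and IGFBP3 at 1.12 and 1.09.

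The rest of the pathway was read from lists by role. Of 45 further genes, 37 held 139 merged regions, 137 of them called, 47 in all 8 lists, 1 in C4-2B alone and 3 in MDV-R alone, beside shares over all called regions of 25.9%, 1.22% and 3.68%. Among the 47 shared regions, tags rose in 16 and fell in 9, background rose in 7 and fell in none, and fold enrichment passed the test in none. Over all fitted regions tags were higher in 24.9% and lower in 29.2%, and background higher in 6.62% and lower in 9.74%. By role, beside the same shares for tags, tags of the adaptors rose in 6 of 8 shared regions and fell in 1, those of the PI3K and AKT arm rose in 5 of 20 and fell in 3, those of the mTOR arm rose in 2 of 10 and fell in 4, those of the FOXO and GSK3 effectors rose in 3 of 8, and the 1 shared region of the phosphatases and ligases fell. Of the ligands, IGF1 held 3 regions, none called in all 8 lists, and IGF2, IGFBP1, IGFBP4, IGFBP6 and PAPPA held none. The region called in C4-2B alone lay in exon 1 of IRS4, another docking protein, on 8 to 13 tags. The regions called in MDV-R alone lay in the last exon of SH2B1, an adaptor that promotes insulin receptor signalling, on 31 to 41 tags, in the 3′UTR of PDPK1, the kinase that activates AKT, on 30 to 33 tags, and in a 5′UTR of FOXO3, a transcription factor restrained by AKT, on 21 to 29 tags.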

How the data were processed

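The deposited files were 8 peak lists, 1 per IP library, and a merged list of regions. Per the study's methods and the submitters' processing notes, reads were aligned with STAR 2.7.0 to hg38 (GENCODE 39) and sorted with SAMtools 1.10. The methods also state that SAMtools was used to keep uniquely mapped reads and leave out duplicates. Peaks were called on each IP library against its input with MACS2 3.0.0a6. For it the methods state reads extended to 100 nt and 300.0 Mb as genome size. Each deposited peak carries a fold enrichment (a ratio of IP tags to local background at the summit, with 1 added to both), −log10 p and −log10 q values, a score and a summit position (unit: other), none of them stranded. How the authors merged the lists is not given in the sources used here.

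Whole IP tags at each summit, the local background and the relative depth of IP and input were recovered by solving the fold enrichment and −log10 p of each peak together. The fragment length of each library was inferred from the shortest peak in its list (239 to 293 nt), and the relative depths rest on it. Because these lengths differed from the stated extension, absolute depth was not derived, and tags were scaled to the mean IP depth. The background cannot fall under the library-wide value, 1 on this scale. The caller had scaled the IP of C4-2B replicate 1 down to its shallower input. The strongest peak of each library represented a region. Summits were annotated with GENCODE 44. Of the 9327 regions called in all 8 lists, 9324 had recovered values and were fitted on the log2 scale, each library centred on its median, with limma 3.58.1 (R 4.3.3) and a variance trend, Benjamini-Hochberg adjustment over all fitted regions and a threshold of 0.05; standard errors are limma's moderated ones. Fisher's exact test, two-sided, was used on calls per line (scipy 1.17.1). The recovery and the fits were tested on simulated data. Read counts were not analysed here, so the methods' differential tests on counts were not run. Peak-level values exist only where a peak was called, so a library without a peak has no value, and tags counted without molecular identifiers are not independent molecules.

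Member regions called in all 8 lists, or in 4 of 4 lists of one line and 0 of 4 of the other, are given with full values and the rest in short. The planned rule was wider and also took regions called mostly in one line. The members, the gene lists and these rules were chosen with earlier results of these data known. Alternatives were other overlap rules, a stricter −log10 q of 5, lists of equal size, another choice of peak per region, a minimum of 20 tags, no centring, no variance trend, a replicate block, an exact permutation test and leaving out each library. Some marker genes are not reported here.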

Additional observations from a re-analysis of the deposited data

Results flagged for a closer look

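Of 75 groups of 4 libraries examined, 7 had 1 library far from the other 3 by Dixon's test at the 95% level, where chance gives about 1 in 20. At IGF1R exon 21, fold enrichment was 11.6 in MDV-R replicate 4 and 14.2 to 14.5 in the others. At the 3′UTR of IGF1R, scaled tags were 52.7 in C4-2B replicate 1 against 78.3 to 80.7, and 17.7 in MDV-R replicate 2 against 12.9 to 13.3. At the end of INSR, the local background was 13.1 in MDV-R replicate 3 against 3.71 to 4.83. At exon 48 of IGF2R, scaled tags were 168 in MDV-R replicate 2 against 122 to 125.4. Toward the end of exon 1 of IRS2, fold enrichment was 30.03 in MDV-R replicate 4 against 14.9 to 16.3. The list of C4-2B replicate 1 held 13191 peaks, against 23254 to 24746 in the other C4-2B lists.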

How the results depend on the processing

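The count of member regions called in all 8 lists was 10 and lay between 8 and 12 under all alternatives, 10 to 12 when 1 library was left out. The count called in all lists of one line and none of the other was 3. It was 1 with a −log10 q of at least 5 (IGF1R exon 2), 2 with lists of equal size (IGF1R exon 2 and the IRS1 intron), 3 to 4 when 1 library was left out, and 3 otherwise. Exon 2 of IGF1R stayed at 4 against 0 lists under the stricter q, the 50% overlap, the equal lists and a union made anew.

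Without centring, the count of tested members whose local background passed was 1 in place of 3. With exact permutation it was 0 for background and 0 for summit tags in place of 6, since the smallest p of 0.0286 became 0.135 and 0.0618 after adjustment over all regions; 3 and 5 of the 8 members had an unadjusted p under 0.05. Leaving out 1 library gave 6 to 7 members for tags, 3 to 4 for background and 0 to 0 for fold enrichment. INSR gained a background call without C4-2B replicate 4 (-1.23, limma adjusted p = 0.0173), and IGF2R without C4-2B replicate 1 (0.66, limma adjusted p = 0.0424). The exon 1 region of IRS2 that missed the threshold in tags also passed with the peak nearest to the common summit (limma adjusted p = 0.0374) and with at least 20 tags on average over the libraries (limma adjusted p = 0.0481), where 7 members were left. No called difference changed direction, but some small ones that had missed the threshold did. Without centring, the log2 difference in fold enrichment turned from negative to 0.29 at IGF2R exon 48, 0.19 at IRS1 exon 1, 0.27 and 0.095 at the later and earlier exon 1 regions of IRS2, and 0.23 at GRB10; at the later IRS2 region it ran from -0.30 without C4-2B replicate 3 to 0.069 without C4-2B replicate 1. At the earlier IRS2 region, tags ran from -0.20 without MDV-R replicate 1 to 0.27 without MDV-R replicate 3, and were also negative (-0.07) without C4-2B replicate 4. At the 3′UTR of IRS2, the background difference, near 0, ran from -0.20 to 0.22 when 1 library was left out, and was 0.022 with the peak of highest fold enrichment and 0.016 with at least 20 tags on average. The untested log2 difference of 0.03 in fold enrichment at IGF1R exon 21 also fell to as low as -0.13, without MDV-R replicate 3. The cause of these changes was not tested.

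Over all 9324 regions, fold enrichment called 84 higher and 165 lower, but 286 higher and 21 lower without centring, and 113 to 473 in all when 1 library was left out, the most without MDV-R replicate 3. Tags called 2321 higher and 2725 lower, but 1333 and 1860 without centring, and background 617 and 908, but 168 and 1252. Same-numbered replicates of the lines did not deviate together (r from -0.07 to 0.04), so the numbers name samples only. With a replicate block the counts of members were 6 for tags, 3 for background and 0 for fold enrichment, and no call changed. Regions called on few tags are the ones that depth limits most.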
